A study of Mus musculus with 43 samples.

Results

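The genes described here handle zinc and copper in kidney proximal tubules of female mice. They were taken from the deposited expression table by symbol: the Slc39 and Slc30 zinc transporter families, the copper transporters Slc31a1 and Slc31a2, the metallothioneins Mt1 to Mt4, and Atp7a, Atp7b, Atox1 and Mtf1. The rule found 34 of the 54532 genes in the table, namely 14 Slc39 genes, 10 Slc30 genes, 5 copper genes, 4 metallothioneins and Mtf1. Of these, 26 reached 1 TPM in at least 1 segment and were compared. TPM is a level scaled to the same total in each column and corrected for transcript length, so genes can be set beside each other.

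The study dissected proximal tubules of C57BL/6 mice, from Taconic and aged 6 to 8 weeks, into the successive parts S1, S2 and S3, with 2 to 5 tubules pooled per sample. The 3 groups used here are female mice of that strain, with no treatment or altered gene named in the labels: S1 with 6 RNA-seq libraries, S2 with 6 and S3 with 7. The table gives each group 1 value per gene, so no difference below has a replicate check or a p-value, and read depth is not known for any of them. Going by title numbers, read as animals, S1 came from 2 animals, S2 from 3 and S3 from 4, and S1 shared none with S2. Segment and animal therefore cannot be told apart between S1 and S2. In bulk samples such as these, fewer cells of a type and less RNA per cell cannot be told apart.

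Zinc and copper are needed as enzyme cofactors and are toxic when free, so cells keep both bound or inside compartments. Slc39 proteins (ZIP) bring zinc into the cytosol from outside or from organelles, and Slc30 proteins (ZnT) mostly move it the other way. Metallothioneins are small cysteine-rich proteins that bind zinc, copper and cadmium in the cytosol, and the zinc-sensing transcription factor MTF1 switches their genes on through metal response elements. Copper enters through CTR1 (Slc31a1), is carried by ATOX1 to the copper pumps ATP7A and ATP7B, and leaves the cytosol through them. The proximal tubule takes up filtered metallothionein and is the site where cadmium accumulates in the kidney.

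The segment labels were checked against known markers. The 4 S1 markers (Slc5a2, Slc5a12, Slc6a19, Gatm) had summed levels of 8131 TPM (S1), 207.5 (S2) and 17.3 (S3), and the 4 S3 markers (Slc7a12, Slc5a1, Slc22a7, Serpina1f) of 3.9, 3421 and 5685. None of the 4 S3 markers differed 2-fold between S2 and S3, so they do not set these segments apart. Of the 6 general proximal tubule markers all were detected throughout, though Slc34a1, the phosphate transporter, went from 10241 TPM in S1 to 2227 in S2 and 17.0 in S3. Aqp1 ran the other way, at 33.0, 383 and 561 TPM. The 2 S2 markers, Slc22a6 and Slc13a3, summed to 8.2, 444 and 2.1. Markers of other cells were present and uneven. The 8 endothelial genes came to 42.9, 407 and 133 TPM, each of the 8 being highest in S2. The 8 immune genes gave 55.7, 279 and 93.0, with 7 highest in S2, and the 8 stromal genes 2.6, 22.2 and 2.2. None of these 24 genes was listed at 0 in any segment. The 3 thick ascending limb genes gave 0.6, 21.4 and 30.2 TPM, nearly all of it Umod, with Cldn16 listed at 0 in S1 and S2. The 6 distal and collecting duct genes gave 30.1, 9.2 and 3.9 TPM, mostly Aqp3 (28.3, 5.2 and 0.1). Umod thus has the segment order of Slc39a8 and Slc39a14, and Aqp3 that of Mt1 and Mt2, so each sum follows 1 gene. Slc12a3, another distal gene, ran against Aqp3 (0.7, 2.0 and 3.0 TPM). Slc12a1 of the thick ascending limb was at 0.4, 0.3 and 1.0 TPM. The part of any of these cells in the differences between segments was not tested.

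Along the tubule, the zinc and copper genes differed in opposite directions. The metallothioneins Mt1 and Mt2, the copper genes Slc31a1 and Atp7a and the zinc transporter Slc30a2 exceeded both later segments at least 2-fold in S1. The metal importers Slc39a8 and Slc39a14 were lowest in S1 and highest in S3. A difference was counted when log2(TPM + 1) differed by at least 1, and fold values are ratios of the TPM themselves. By this rule 10 of the 26 genes (38.5%) differed between their highest and lowest segment, against 33.3% of the 16053 genes compared in the whole table. The share of such genes was thus close to the background, and the median distance from highest to lowest was also near it (0.78 on the log2 scale, against 0.71).

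**Figure D1:**
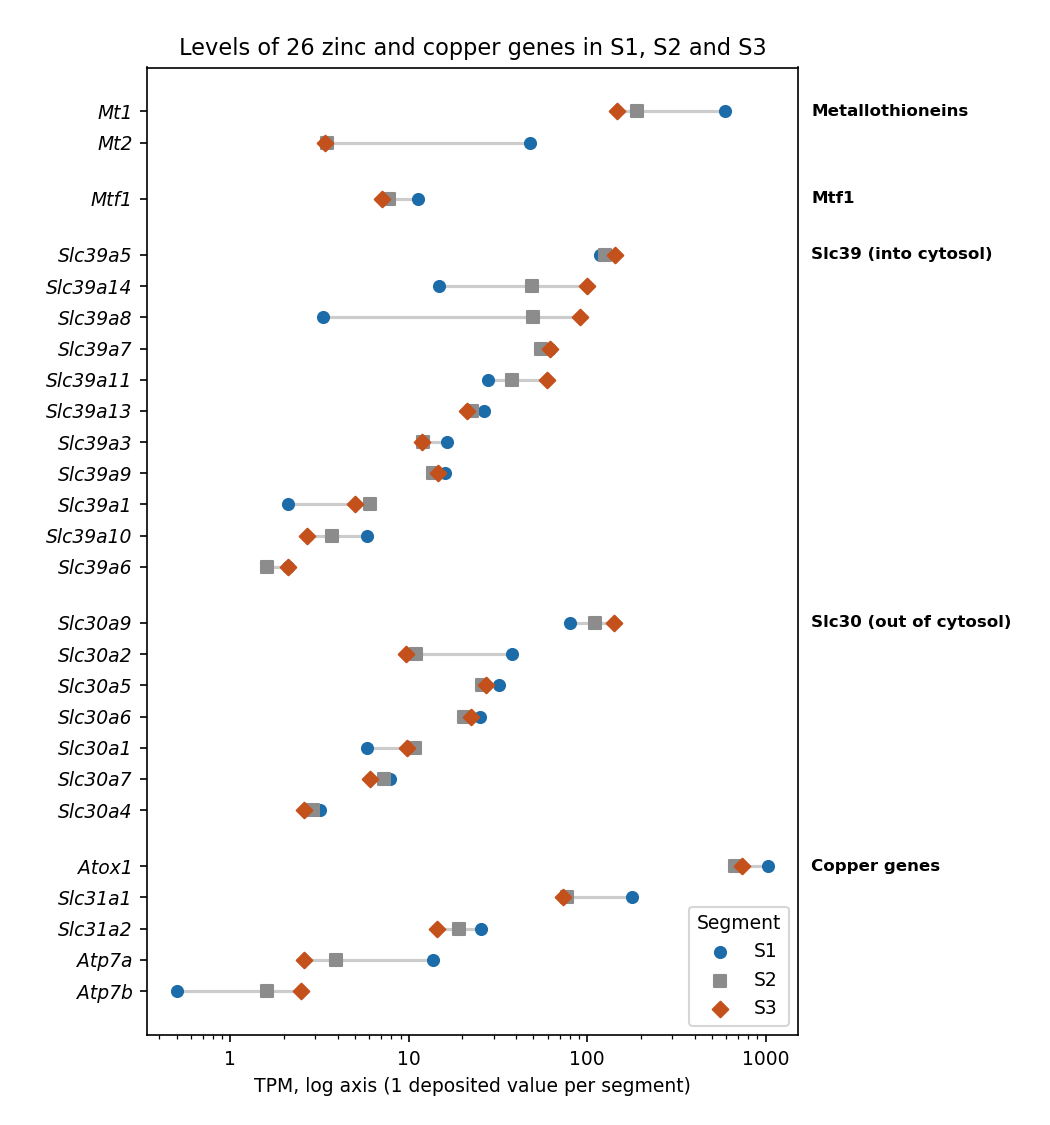
TPM (log axis) of the 26 genes with at least 1 TPM in at least 1 segment, grouped by role, with a circle for S1, a square for S2 and a diamond for S3, each being 1 deposited value. The circles of Mt1 (596 TPM) and Mt2 (47.8 TPM) lie far to the right of their other symbols, while those of Slc39a8 (3.3 TPM) and Slc39a14 (14.8 TPM) lie far to the left.

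Mt1 was the most abundant metallothionein, with 596 TPM for S1, 189 for S2 and 146 for S3. S1 alone stood high, 3.15-fold above S2 and 4.07-fold above S3, while S2 and S3 lay within 1.29-fold of each other. Mt2 showed the same order with a steeper step, at 47.8, 3.5 and 3.4 TPM, so that S1 exceeded S2 13.7-fold and S3 14.1-fold. The ratio of Mt1 to Mt2 was accordingly 12.5 in S1, 54.0 in S2 and 43.0 in S3, so Mt2 had a greater share of the metallothionein RNA in S1. Mt1 stood at the 98.6th percentile of the compared genes in S1 and at the 94.1th in S3. Mt2 stood at the 84.8th percentile in S1 and near the middle of the genes in S2 (36.8th) and S3 (40.8th).

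The remaining metallothioneins were almost silent. Mt3, the form best known from brain, was at 0.1 TPM in S1 and S2 and listed at 0 in S3, and Mt4, known from stratified epithelia, was listed at 0 in the 3 segments. The 4 genes lie together on chromosome 8 in the order Mt4, Mt3, Mt2, Mt1, within 43.1 kb (GRCm38.p6). Mt2 spans 94172618 to 94173567 and Mt1 94178883 to 94180327, with 5.32 kb between them. In this cluster the neighbouring pair Mt2 and Mt1 alone passed 1 TPM. Mt1 and Mt2 transcripts are short and alike, and how the authors divided reads shared between them is not stated in the labels. Mtf1 differed less than 2-fold in each contrast, at 11.2, 7.8 and 7.1 TPM.

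The promoters of Mt1 and Mt2 are shown because both genes were high in S1 and because metal response elements are what links metallothionein genes to MTF1. The sequences are from RefSeq (GRCm38.p6), read 5′ to 3′ on the gene's strand from 250 bases before the annotated start up to the base before it. Capitals mark matches to the element's core, TGCACNC or TGCGCNC, on either strand, so a match on the other strand reads as its reverse complement. Mt1 is at chr8:94178839-94179088 on the plus strand, and Mt2 at chr8:94172368-94172617 on the plus strand. For Mt1 the annotated gene itself begins 206 bases before the start that this window uses.
Mt1: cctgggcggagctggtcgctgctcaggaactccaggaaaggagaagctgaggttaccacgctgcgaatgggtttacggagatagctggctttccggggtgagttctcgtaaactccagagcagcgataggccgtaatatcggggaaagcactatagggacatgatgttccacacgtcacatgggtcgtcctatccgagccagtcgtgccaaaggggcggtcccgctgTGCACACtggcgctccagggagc
Mt2: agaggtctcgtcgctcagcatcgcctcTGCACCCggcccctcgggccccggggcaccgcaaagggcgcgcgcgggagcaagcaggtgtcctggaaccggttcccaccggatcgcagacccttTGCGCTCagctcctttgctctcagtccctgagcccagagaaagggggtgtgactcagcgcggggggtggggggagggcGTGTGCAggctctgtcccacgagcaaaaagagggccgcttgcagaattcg

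The window searched ran from 250 bases before the start to 50 after it. Mt2 held 4 matches, beginning at -223, -128, -50 and 5 relative to the start. Mt1 held 3, at -23, 3 and 21, and the stretch printed above shows the first alone. Bases beyond 50 after the start were not searched, so the counts of Mt1 and Mt2 hold for these windows only. Slc30a4, within 2-fold across segments, and Slc30a10, at or below 0.1 TPM, also held 3 each. Slc30a1, Slc30a2 and Atp7a held 2 each. At least 3 matches were found in 1.97% of all 32851 promoter windows of the same length, and at least 4 in 0.517%. The core is short and frequent, since 25.7% of all windows held at least 1 match. Windows were found for 30 of the 34 genes (35 windows), and 19 of the 35 (54.3%) held a match. The members' windows were also richer in G and C, with a median of 61.3% against 52.7% over all windows. Slc30a8, Slc39a14, Slc39a4 and Slc39a6 had no window.

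Among the 10 genes that differed 2-fold between segments, 7 had a match, on 8 of their 11 windows (72.7%), against 7 of 17 windows (41.2%) for the members within 2-fold. GC content was alike in these sets (63.0% and 63.3%). The shares rest on few windows, and the first set includes Mt1 and Mt2, for which the element was chosen. Whether the sets differ was not tested. Matches occurred in genes high in S1 (Mt1, Mt2, Slc30a2, Atp7a) and in genes high in S3 (Slc39a8, Slc39a11, Atp7b), and none was found in the windows of Slc31a1 and Slc39a1. The windows of Slc39a8 (from 135825029 and 135825407) lie inside the annotated gene, which begins at 135816882, so that first start was not searched. The Slc30a2 window (from 134343216) also lies inside its gene (from 134343046). A match describes letters only, and 2 matches on opposite strands may overlap, as a pair does in Slc30a10. Stretches of 60 bases around matches outside the metallothionein cluster follow, so that genes of either direction can be compared.
Slc30a2 (chr4:134343232-134343291, plus strand): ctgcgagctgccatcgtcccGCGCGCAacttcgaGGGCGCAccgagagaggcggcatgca
Atp7a (chrX:106027071-106027130, plus strand): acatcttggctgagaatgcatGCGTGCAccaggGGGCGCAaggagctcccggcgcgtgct
Slc39a8 (chr3:135825597-135825656, plus strand, the later of 2 starts): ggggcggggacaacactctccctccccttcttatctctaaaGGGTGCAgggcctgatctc
Atp7b (chr8:22060199-22060258, minus strand): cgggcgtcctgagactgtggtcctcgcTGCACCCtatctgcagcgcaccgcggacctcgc
Slc39a11 (chr11:113650093-113650152, minus strand, the first of 2 starts): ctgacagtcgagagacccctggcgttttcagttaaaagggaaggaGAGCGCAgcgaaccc
Slc39a11 (chr11:113565923-113565982, minus strand, the other start): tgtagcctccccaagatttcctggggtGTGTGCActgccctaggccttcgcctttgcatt

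**Figure D2:**
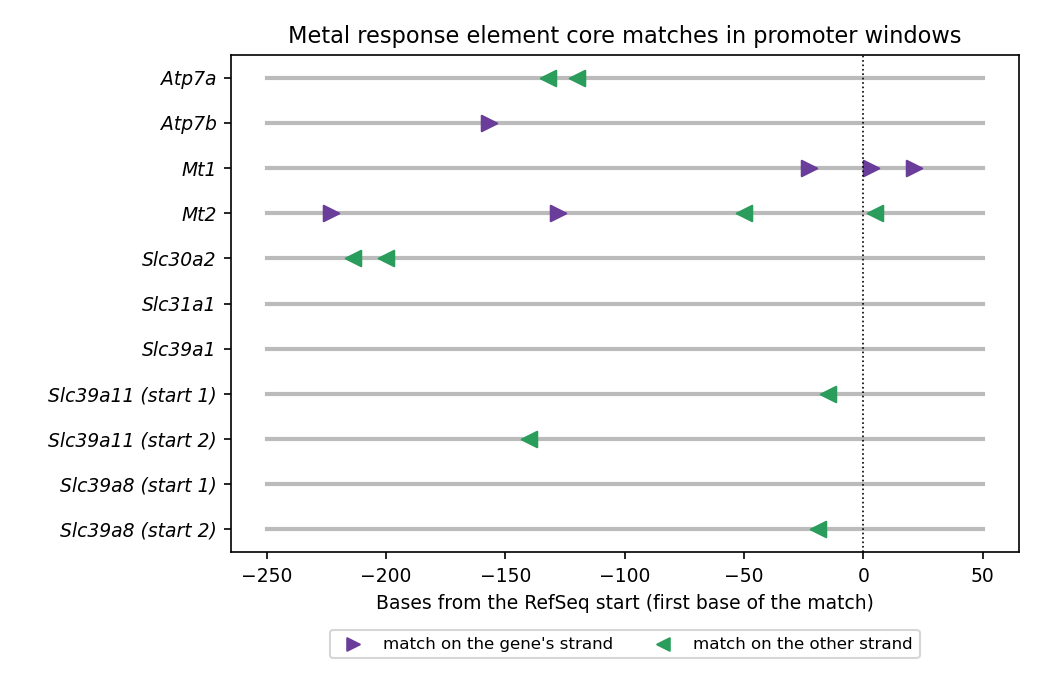
Position, in bases from the RefSeq start, of each match to the metal response element core in the promoter windows (grey lines, from 250 bases before to 50 after the start) of genes with a 2-fold difference between segments, with right-pointing marks for the gene's strand and left-pointing marks for the other strand. Mt2 has 4 marks and Mt1 3, while Slc31a1, Slc39a1 and the first of the 2 starts used for Slc39a8 have none. Both of these Slc39a8 starts lie inside the annotated gene.

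Among the zinc importers, Slc39a8 (ZIP8), which carries zinc, manganese, iron and cadmium, differed most. Its level was 3.3 TPM for S1, 49.4 for S2 and 90.7 for S3. S1 was thus 15.0-fold below S2 and 27.5-fold below S3, while S2 and S3 lay 1.84-fold apart. The gene lies on chromosome 3 from 135816882 to 135888572. Its highest value was in S3. The endothelial and immune sums were, like Slc39a8, lowest in S1 (42.9 and 55.7 TPM). They were higher in S2 (407 and 279 TPM) than in S3 (133 and 93.0 TPM). One immune marker, Csf1r, had the order of Slc39a8 (0.5, 32 and 46.9 TPM) and made up much of the S3 immune sum, while the other 7 were highest in S2. The thick ascending limb sum, nearly all of it Umod, was highest in S3 (30.2 TPM). The part of other cells in the Slc39a8 difference was not tested. Slc39a14 (ZIP14), the closest relative of Slc39a8 with the same metals, was at 14.8, 49.1 and 99.2 TPM. It lies on chromosome 14 from 70303467 to 70351452. Its S1 value lay 3.32-fold below S2 and 6.70-fold below S3. Between S2 and S3 it lay exactly on the 2-fold threshold, with a log2 difference of -0.95 under a pseudocount of 5, -0.91 under quantile normalization, -0.93 after removing Gpx3, Kap and mitochondrially encoded genes, and -1.16 under median-of-ratios scaling over the genes compared. The S1 against S2 difference of Slc39a14 was -1.66 and became -0.98 when scaling factors were taken from every gene above 0.

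Slc39a11, a member associated with the Golgi, also had its highest value in S3, at 27.7, 37.7 and 59.7 TPM. Its log2 difference between S1 and S3 was -1.08, just past the threshold, -0.98 with a pseudocount of 5 and -0.89 with scaling factors from every gene above 0. Slc39a1, a plasma membrane importer, was at 2.1, 6.1 and 5.0 TPM. It was lower in S1 than in S2 by 1.20 on the log2 scale, a difference that came to -0.64 with a pseudocount of 5 or with scaling factors from every gene above 0, and to -0.82 with quantile normalization.

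Most other Slc39 genes were even along the tubule. Slc39a5, an epithelial zinc importer, was the most abundant of the family in each segment, at 118, 126 and 143 TPM, above the 93rd percentile of the compared genes throughout. Slc39a7, which releases zinc from the endoplasmic reticulum, was at 62.1, 54.9 and 61.9 TPM. Slc39a13 (26.5, 22.7 and 21.2), Slc39a3 (16.4, 12.0 and 11.9) and Slc39a9 (15.9, 13.7 and 14.6) also stayed within 2-fold. Slc39a10 (5.8, 3.7 and 2.7) and Slc39a6 (2.1, 1.6 and 2.1) were low. By TPM Slc39a10 was 2.15-fold higher in S1 than in S3, but its log2 difference of 0.88 was within the threshold. That difference was 1.08 with a pseudocount of 0.1 and 1.06 with scaling factors from every gene above 0. Some importers were below 1 TPM throughout. They were Slc39a4, the intestinal zinc importer (listed at 0 in S1, 0.5 in S2 and 0.1 in S3), Slc39a2 (0.2, 0.2 and 0.1) and Slc39a12 (0.1, 0.1 and listed at 0).

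The make-up of the importer RNA therefore differed by segment. The 14 Slc39 genes came to 295, 377 and 512 TPM along S1, S2 and S3. Slc39a8 and Slc39a14 together gave 18.1, 98.5 and 190 TPM of this, and the other 12 genes 277, 279 and 322. In S1, Slc39a5 and Slc39a7 made up 40.0% and 21.0% of the sum, and Slc39a8 and Slc39a14 1.12% and 5.02%. In S3, Slc39a8 and Slc39a14 made up 17.7% and 19.4%. The order of S1 and S2 turned when scaling factors were taken from every gene above 0 (372 and 290, with 564 in S3).

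**Figure D3:**
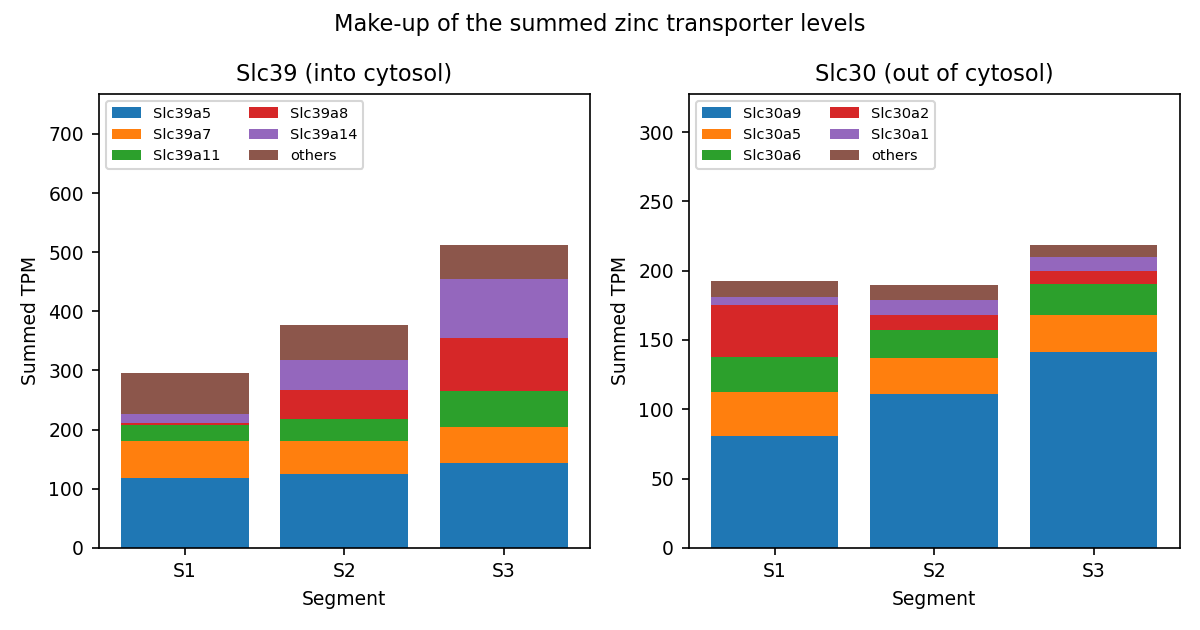
Summed TPM of the Slc39 importers (left) and the Slc30 family (right) in each segment, with the leading genes of each family as coloured parts of the bars. The largest Slc30 part is Slc30a9, a mitochondrial member, so the Slc30 bars do not stand for transport out of the cytosol alone. As deposited, the Slc39 bars run from 295 TPM in S1 to 512 in S3, mostly through Slc39a8 and Slc39a14, and the Slc30 bars lie between 190 and 219 TPM, and in both families the order of S1 and S2 turns under other scalings.

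The Slc30 family had 1 member with a 2-fold difference. Slc30a2 (ZnT2), which loads zinc into vesicles and is known from milk secretion, had 37.8 TPM for S1, 11.0 for S2 and 9.7 for S3. It was 3.44-fold and 3.90-fold higher in S1, with S2 and S3 within 1.13-fold of each other, and lies on chromosome 4 from 134343046 to 134354484. Slc30a1 (ZnT1), the main zinc exporter of the plasma membrane and a classical MTF1 target, did not share the order of the metallothioneins. It was at 5.8, 10.8 and 9.8 TPM, a log2 difference of -0.80 between S1 and S2 and -0.67 between S1 and S3, within the 2-fold threshold.

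Slc30a9, a mitochondrial member, was the most abundant of the family, at 80.6, 111 and 141 TPM, and made up 41.9% of the Slc30 sum in S1, 58.6% in S2 and 64.5% in S3. Slc30a5 (31.9, 25.6 and 27.0), Slc30a6 (25, 20.5 and 22.3) and Slc30a7 (7.9, 7.3 and 6.1) supply zinc to enzymes in the secretory pathway, and each stayed within 2-fold. Slc30a4, another vesicular transporter, was at 3.2, 2.9 and 2.6. The synaptic Slc30a3, the insulin-granule Slc30a8 and the manganese exporter Slc30a10 were at or below 0.1 TPM in each segment. The 10 genes summed to 192, 190 and 219 TPM, and without Slc30a9 to 112, 78.4 and 77.6. The order of S1 and S2 in the family sum depended on scaling, with 242, 146 and 241 TPM under factors from every gene above 0 and 234, 248.5 and 272 after removing Gpx3, Kap and mitochondrially encoded genes.

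The copper genes were mostly highest in S1. Slc31a1 (CTR1), the high-affinity copper importer of the plasma membrane, had 179 TPM for S1, 77.4 for S2 and 72.8 for S3. It was 2.32-fold and 2.46-fold higher in S1, and S2 and S3 lay within 1.06-fold. Atp7a, the copper pump mutated in Menkes disease, was at 13.6, 3.9 and 2.6 TPM, that is 3.49-fold and 5.23-fold higher in S1. Slc31a1 lies on chromosome 4 (62360583 to 62391769), 62.2 kb beyond Slc31a2, and Atp7a on chromosome X (106027224 to 106128161). Fkbp15 overlaps Slc31a1 in the annotation, and the library protocol names no strand marking, so reads from the overlap could belong to either gene.

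Atp7b, the related pump mutated in Wilson disease, ran the other way at a much lower level, at 0.5, 1.6 and 2.5 TPM. Its log2 difference between S1 and S3 was -1.22, which became -0.45 with a pseudocount of 5, so it rests on low values. Atp7a exceeded Atp7b 2.44-fold in S2 and 1.04-fold in S3, while in S1 Atp7b was below 1 TPM. Atox1, the chaperone that serves both pumps, was the most abundant of the 34 genes, at 1037, 673 and 741 TPM, at or above the 98.9th percentile in each segment. Slc31a2 (CTR2), which acts on internal copper stores, was at 25.3, 19.1 and 14.4. Neither Atox1 nor Slc31a2 differed 2-fold.

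Counted by contrast, S1 against S2 gave 5 of 26 genes at least 2-fold higher in S1, where 6.62% of all compared genes were, and 3 lower, where 17.7% were. The higher genes were Mt1, Mt2, Slc30a2, Atp7a and Slc31a1, and the lower ones Slc39a1, Slc39a14 and Slc39a8. The median difference of the 26 genes was 0.23, against -0.18 over all genes. S1 against S3 gave the same 5 genes higher (background 10.5%) and 4 lower, namely Slc39a11, Slc39a14, Slc39a8 and Atp7b (background 13.1%), with a median of 0.23 against -0.01. S2 against S3 gave none higher in S2 (background 8.74%) and 1 lower, Slc39a14 at the threshold (background 2.24%), with a median of 0.02 against 0.12. Counts and background depend on scaling. With scaling factors from every gene above 0, S1 against S2 gave 10 of the 26 genes higher and 1 lower, beside 22.1% and 9.88% of all genes, and a median of 0.89 against 0.40. The genes that joined were Atox1 (1.34), Mtf1 (1.11), Slc39a10 (1.11), Slc39a3 (1.08) and Slc31a2 (1.07), each within 2-fold as deposited. These contrasts share their segment values, so the repeated genes are not separate evidence.

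**Figure D4:**
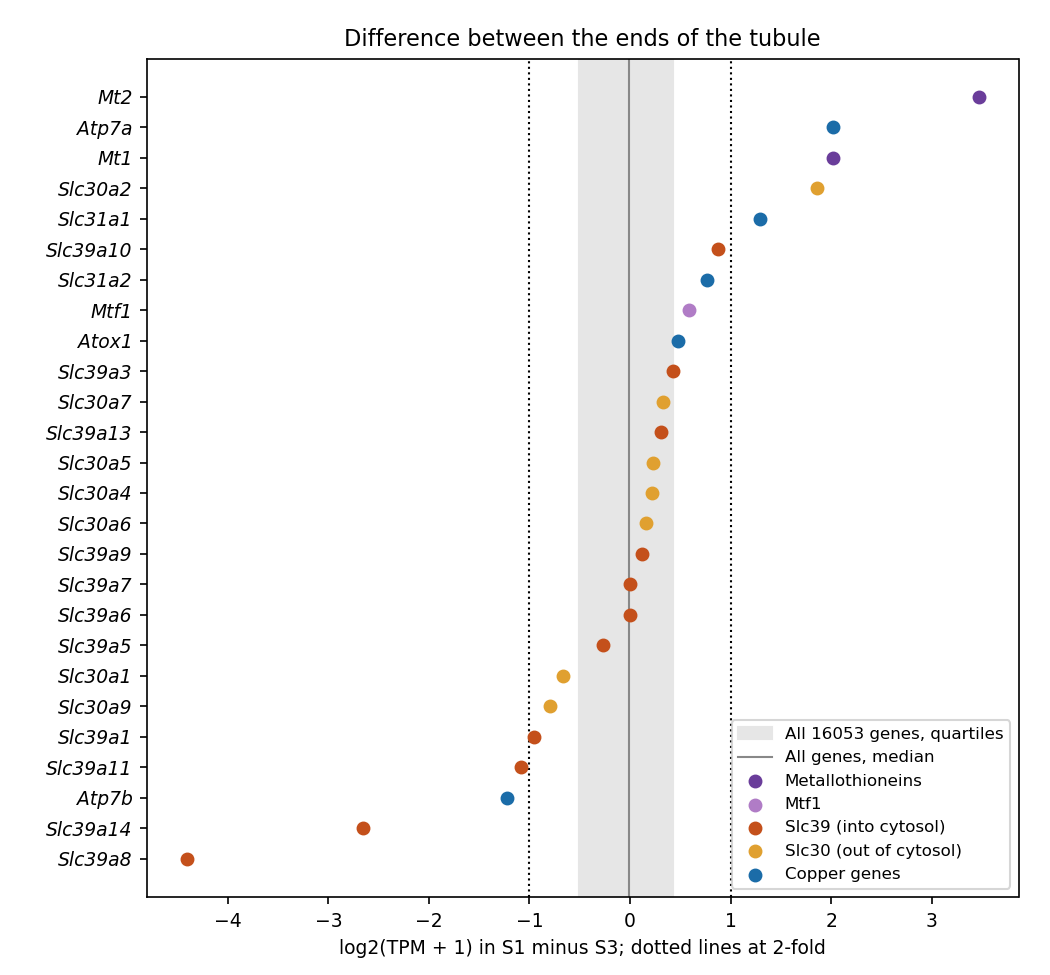
Difference in log2(TPM + 1) between S1 and S3 for the 26 genes, coloured by role, with dotted lines at 2-fold and the quartiles (-0.50 and 0.43) and median (-0.01) of all 16053 compared genes as a grey band and line. Mt2 (3.47), Atp7a (2.02), Mt1 (2.02), Slc30a2 (1.86) and Slc31a1 (1.29) lie beyond the right line, and Slc39a8 (-4.41) and Slc39a14 (-2.66) far beyond the left one.

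The place of S2 between the ends was measured in log2(TPM + 1) for the 9 genes 2-fold apart at the ends. The scale runs from 0 (the S3 value) to 1 (the S1 value), and places on the TPM scale itself would differ. Mt2 (0.00934), Slc31a1 (0.0676), Slc30a2 (0.089) and Mt1 (0.182) were near the S3 end, so most of their difference lay between S1 and S2. In S2, Mt1 and Slc31a1 were still abundant, at the 95.7th and 90.1th percentiles of the compared genes. Slc39a8 (0.196) and Atp7a (0.22) were also closer to S3. Atp7b (0.351), Slc39a14 (0.375) and Slc39a11 (0.601) were more evenly graded over the 3 segments on this log2 scale. The median of the 9 was 0.196, near that of the 3789 genes of the whole table that differed between the ends (0.234).

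Copper delivery and copper enzymes beyond the 34 genes were taken from a list of 17, of which 14 were compared. Between S1 and S3, S1 was higher at least 2-fold for 2 and lower for 3, with a median of 0.25, against 10.5% and 13.1% of all genes and a median of -0.01. Steap2, a metalloreductase that can prepare copper for uptake, was at 89.9, 30.6 and 22.2 TPM, and Heph, a copper-dependent ferroxidase, at 9.6, 0.7 and 0.1. Sod1, the copper-zinc superoxide dismutase, was at 176.5, 606 and 795 TPM. Cp (ceruloplasmin), the copper ferroxidase of plasma, was at 0.5, 15.9 and 95.8 TPM, and the metalloreductase Steap3 at 0.3, 30.7 and 51.6. Cox17, which hands copper to cytochrome oxidase assembly, stayed within 2-fold (430, 514 and 690), as did Slc25a3, the mitochondrial phosphate and copper carrier (1236, 661 and 697). Against S2, S1 was higher for Steap2, Heph and Aoc1 (3.6, 1.0 and 2.0 TPM) and lower for the same 3 genes as against S3, and between S2 and S3 Cp alone differed 2-fold.

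Genes of the metal and oxidant response went both ways. Of 9, S1 exceeded S3 at least 2-fold for 3 and was lower for 4, with a median of -0.65 (10.5% and 13.1% of all genes, median -0.01). The numbers were the same against S2, with a median of -0.57 (6.62% and 17.7% of all genes, median -0.18). Hmox1, the inducible heme oxygenase, was at 55.9, 18.2 and 22.1 TPM, and Srxn1 (sulfiredoxin) at 73.4, 19.4 and 19.1. Ndrg1, a stress-responsive gene, was at 1946, 492 and 124. The glutathione synthesis gene Gclm was at 181, 646 and 976 TPM, and Nqo1, a quinone reductase, at 20.8, 57.4 and 72.4, in both cases lowest in S1, as were Gclc (37.3, 199 and 490) and Csrp1 (0.9, 8.0 and 3.4). S2 exceeded S3 at least 2-fold for Ndrg1 and Csrp1, and Gclc was lower in S2 than in S3 (8.74% and 2.24% of all genes).

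Of 8 other genes of metal entry, export and sensing, 6 were compared. Slc40a1, the iron exporter ferroportin, had 51.4 TPM for S1, 16.3 for S2 and 0.4 for S3. It alone of the 6 differed 2-fold between S1 and S3, where 10.5% of all genes were higher in S1 and 13.1% lower. Slc11a2 (DMT1), the divalent metal importer, was at 46.8, 31.7 and 26.9, and the channel Trpm7 at 32.1, 41.3 and 30.6. Slc11a1, a metal transporter of macrophages, was at 0.1, 1.9 and 0.4 TPM, highest in S2 like the immune markers. Between S1 and S2 Slc40a1 was higher and Slc11a1 lower in S1 (6.62% and 17.7% of all genes). Both were higher in S2 than in S3 (8.74% of all genes).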

How the data were processed

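Per the labels' protocols, RNA from dissected tubules was amplified with a SMARTer V4 kit, tagmented with Nextera XT and sequenced as paired 50-base reads, with no strand marking or molecular identifiers named. The submitters' processing notes name the build mm10 and, among tools, STAR, RSEM, cutadapt, SAMtools, Picard, MACS2 and Bowtie2 without roles. The authors deposited TPM, 1 value per gene and segment, rounded to 1 decimal. The sources used here do not say how libraries were combined. The columns sum to 999907 (S1), 999988 (S2) and 999911 (S3). TPM keeps no read depth, so no interval or detection floor was computed. Another 5 value columns were not used because no label ties them to RNA-seq samples, and chromatin accessibility samples were left out.

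Differences are of log2(TPM + 1), a pseudocount of 1, over the 16053 genes reaching 1 TPM in a segment. This scale understates the fold of low genes. With 1 value per group no test was possible. All 34 genes are named. List genes named are those that differed 2-fold and up to 3 of the most abundant. Members and lists were chosen with earlier results of these data known. Metal response element cores were searched in RefSeq promoter windows (GRCm38.p6), and coordinates are from the same annotation. Of the 34 genes, 10 overlap another RefSeq gene. Protein sequences were not used here. The calling step was run on copies of the S1 column with small noise and known folds given to abundant genes. This checks that step alone, not low values or scaling. Alternatives changed the pseudocount, filter, scaling and fold threshold. Python 3.11.15, pandas 2.3.3 and NumPy 2.4.6 were used.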

Additional observations from a re-analysis of the deposited data

How the results depend on the processing

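Under 8 other settings of pseudocount, filter, scaling and threshold none of the 18 differences of at least 2-fold changed direction, and 13 stayed past the threshold wherever they were compared. The other 5 (Slc39a1 and Slc39a14 in S1 against S2, Slc39a11 and Atp7b in S1 against S3, Slc39a14 in S2 against S3) are given with their values above. Of these settings, only a change of scaling could have turned a direction. The filters and the 1.5-fold threshold could not bring a 2-fold difference within the threshold. A pseudocount of 5 left 2 genes lower in S1 than in S3, beside 6.48% of all genes. It left 0 lower in S2 than in S3, beside 0.654%. The latter count was also 0 with quantile normalization (3.12% of all genes) and after removing Gpx3, Kap and mitochondrially encoded genes (2.11%). A 1.5-fold threshold, which calls more by construction, gave 5 genes lower for S1 against S2, beside 33.0% of all genes. It gave 8 higher and 7 lower for S1 against S3 (19.5% and 22.5%), and 3 lower for S2 against S3 (5.6%). Median-of-ratios scaling, with factors from every gene above 0, gave 10 higher and 1 lower for S1 against S2 (22.1% and 9.88% of all genes). It gave 3 lower for S2 against S3 (6.02%). It put Slc39a1 and Slc39a14 in S1 against S2 (-0.64 and -0.98) and Slc39a11 in S1 against S3 (-0.89) within 2-fold. It moved the median of all genes from -0.18 to 0.40 in S1 against S2 and from 0.12 to -0.31 in S2 against S3. Of the 25489 genes behind those factors, 10450 were below 1 TPM, where values are rounded to 1 decimal. Factors from the genes compared were an alternative chosen after seeing these values, and 18 of the 18 differences stayed past the threshold with them. They gave 2 genes lower for S2 against S3 (3.0% of all genes), where Slc39a8 joined at -1.03. The medians were then -0.01 and -0.02, with quantile normalization 0.02 and -0.03, and after the removal -0.27 and 0.18. Over the whole table, the share of higher among called genes in S1 against S2 went from 27.2% to 37.4% with factors from the genes compared, 43.4% with quantile normalization and 69.1% with factors from every gene above 0, and in S2 against S3 from 79.6% to 69.9%, 64.0% and 43.0%. The median of the 26 genes in S2 against S3 (0.02) turned to -0.44 with factors from every gene above 0, -0.12 with factors from the genes compared and -0.10 with quantile normalization. No paired analysis was possible because the table has 1 value per segment, and for the same reason no library could be left out.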

Other observations

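Zinc is also the cofactor of many brush border enzymes of this tubule, and these split by segment. Of 11 such genes, S1 exceeded S3 at least 2-fold for 5 and was lower for 5, against 10.5% and 13.1% of all genes. Among the peptidases, Mep1a, a meprin subunit, had 47.7 TPM for S1, 686 for S2 and 1042 for S3, Mme (neprilysin) had 3.7, 76 and 120, and Anpep (aminopeptidase N) had 20.2, 37.3 and 69.0. Dpep1, a dipeptidase, ran the other way, at 422, 20.1 and 2.5 TPM, as did Enpep (aminopeptidase A), at 55.6, 21.7 and 1.5. Alkaline phosphatase, Alpl (1129, 161 and 0.8), and the membrane carbonic anhydrase Car14 (401.6, 117 and 0.4) were also highest in S1. The other meprin subunit, Mep1b (0.2, 276 and 531), and angiotensin-converting enzyme, Ace (0.3, 42.2 and 76.2), were lowest there, and the carbonic anhydrase Car4 was highest in S2 (38.7, 171 and 0.5).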
